A study of Mus musculus with 16 samples.

Results

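Chromatin accessibility of thymic regulatory T cells (Treg) was compared with that of the CD25-negative cells labelled semimature single positive (smSP) from the same 4 mice. The comparison used 8 of the 16 ATAC-seq libraries of the series, and 72838 of its 73442 peaks had a mean of at least 10 normalised reads over these 8 libraries and were tested. The 4 libraries labelled mature single positive (mSP), the other CD25-negative population, stand beside them throughout. Treg were sorted as Foxp3-GFP+ CD4+ CD8- TCRβ+ cells, smSP as CD25- Foxp3-GFP- CD4+ CD8- cells with TCRβ low and CD24 high, and mSP as the same with TCRβ high and CD24 low. Each replicate held between 40000 and 50000 thymus cells. Mice T9 and T10 carried the genotype CNS4FL/YFoxp3GFP/Y and are called CNS4-sufficient, and mice T7 and T8 carried CNS4KO/YFoxp3GFP/Y and are called CNS4-deficient. Ages are not given in the labels. All were on C57BL/6J, and all carried the Foxp3 allele with the GFP reporter, including the controls. CNS4 is a conserved noncoding sequence of the Foxp3 locus, the gene of the factor that defines Treg.

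Treg arise in the thymus among CD4 single positive cells whose T cell receptor has bound self peptide strongly. Receptor and co-stimulation signals open a set of enhancers, IL-2 acts through STAT5, and Foxp3 is then switched on. Conventional single positive cells mature in parallel: they lose CD24, gain the transcription factor Klf2 and its target S1pr1, and leave the thymus along sphingosine-1-phosphate. ATAC-seq reads out open chromatin because a transposase cuts where DNA is accessible. A value below is the number of reads in a peak divided by a size factor of its library, called normalised reads. In these bulk samples, fewer cells with an open site and less opening per cell cannot be told apart. Differences are log2(normalised reads + 1) within a mouse, which understates changes of weak peaks. A peak is called higher or lower where the limma test, with the mouse as a block, gave an adjusted p under 0.05 over all peaks tested.

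Accessibility at the gene of a sort marker went against the labels mSP and smSP. Over the 9 tested peaks of Cd24a, the gene of CD24, the summed normalised reads in T9, T10, T7 and T8 were 296, 334, 247 and 323 in smSP and 555, 559, 548 and 555 in mSP. The libraries labelled mSP were higher in each mouse and the groups did not overlap, although the mSP gate took the cells with low CD24. The gate was on the protein, and accessibility of its gene need not follow it. All 9 peaks were called higher in mSP, against 10.4% of all peaks higher and 6.4% lower in mSP than in smSP. By DESeq2, 4 of the 9 did not pass. For mouse T8, the free-text descriptions of the mSP and smSP libraries also named the opposite population from their titles. The titles were followed. With the T8 libraries exchanged, limma called 0 peaks between mSP and smSP, with 3988 at an unadjusted p under 0.05. By title it called 12267, edgeR called 12632 and DESeq2 called 4522. In Treg against smSP the exchange gave 25870 calls, beside 27433 by title. Leaving out T10 lowered the calls between mSP and smSP to 8011. The libraries held 6580712 to 11437401 reads in peaks for Treg, 5799697 to 9968196 for smSP and 5585827 to 9416774 for mSP. In a principal component analysis of the 12 libraries, the first component held 68.4% of the variance and set Treg apart from the rest. The next held 7.81% and separated the titles mSP and smSP in every mouse.

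**Figure D1:**
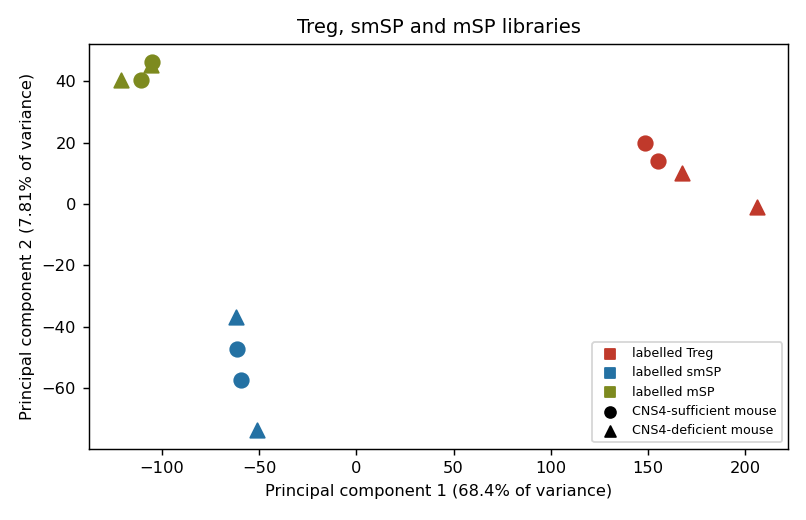
Principal component analysis of log2(normalised reads + 1) over 72838 peaks. Each point is 1 library, coloured by labelled population, with circles for CNS4-sufficient and triangles for CNS4-deficient mice. The first component (68.4% of variance) separates Treg, and the second (7.81%) separates smSP from mSP.

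The promoters below carry peaks that differed between Treg and smSP, 4 of them higher and 1 lower in Treg. They were chosen after their values were seen, to show genes of receptor, cytokine and NF-kB signalling, of migration and of chromatin, and both directions that mSP takes beside smSP. Each is the 250 bases before the annotated gene start from RefSeq (GRCm38.p6, the same assembly as mm10), 5′ to 3′ on the gene's strand. Capitals mark matches on either strand to the short motifs searched, listed after the sequences.
Tnfrsf9 promoter (4:150927749-150927998, plus strand): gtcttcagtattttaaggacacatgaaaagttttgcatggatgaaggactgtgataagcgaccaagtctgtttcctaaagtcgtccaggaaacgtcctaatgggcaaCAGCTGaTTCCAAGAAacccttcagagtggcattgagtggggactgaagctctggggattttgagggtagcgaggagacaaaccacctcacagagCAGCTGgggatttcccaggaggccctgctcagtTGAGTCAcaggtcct
Socs3 promoter (11:117969367-117969616, minus strand): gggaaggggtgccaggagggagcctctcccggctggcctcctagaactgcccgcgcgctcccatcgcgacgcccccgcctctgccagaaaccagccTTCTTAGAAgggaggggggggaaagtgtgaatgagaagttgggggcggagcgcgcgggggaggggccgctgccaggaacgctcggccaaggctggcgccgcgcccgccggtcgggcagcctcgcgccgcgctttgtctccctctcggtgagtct
Nfkbia promoter (12:55492648-55492897, minus strand): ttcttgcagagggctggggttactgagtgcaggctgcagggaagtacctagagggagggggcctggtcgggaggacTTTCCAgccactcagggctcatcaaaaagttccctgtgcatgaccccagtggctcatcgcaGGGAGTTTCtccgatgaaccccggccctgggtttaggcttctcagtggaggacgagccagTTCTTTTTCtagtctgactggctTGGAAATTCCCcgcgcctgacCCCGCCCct
Ccr6 promoter (17:8242276-8242525, plus strand): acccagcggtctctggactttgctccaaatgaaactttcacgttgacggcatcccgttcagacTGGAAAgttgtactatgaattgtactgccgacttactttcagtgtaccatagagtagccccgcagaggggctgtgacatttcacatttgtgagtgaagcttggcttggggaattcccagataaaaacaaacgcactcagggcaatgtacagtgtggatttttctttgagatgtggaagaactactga
Satb1 promoter (17:51826589-51826838, minus strand): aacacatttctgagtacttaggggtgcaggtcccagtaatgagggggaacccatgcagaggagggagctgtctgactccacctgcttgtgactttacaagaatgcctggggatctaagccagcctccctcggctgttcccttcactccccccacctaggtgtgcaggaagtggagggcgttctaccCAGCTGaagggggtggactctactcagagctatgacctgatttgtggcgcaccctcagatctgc

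The motifs were CCGGAAGT (ETS), GGGCGGG (SP or KLF), TGTGGTT (RUNX), TTCNNNGAA (STAT), GGGANTTTC (NF-kB), TGANTCA (AP-1), TGTTTAC (FOX), CTTTGAT (TCF or LEF), CAGCTG (E box), TGGAAA (NFAT) and GAAANNGAA (IRF). Of 21005 RefSeq promoters of the same 250 bases, 3.84% held the ETS letters, 31.4% SP or KLF, 3.83% RUNX, 6.61% STAT, 0.919% NF-kB, 6.14% AP-1, 2.64% FOX, 2.83% TCF or LEF, 12.2% E box, 17.0% NFAT and 6.86% IRF. The Tnfrsf9 promoter holds a STAT match, an AP-1 match and a pair of E boxes. The Socs3 promoter holds a STAT match. That of Nfkbia holds a pair of NF-kB matches, the later of which overlaps an NFAT match, with another NFAT match and an IRF and an SP or KLF match. The Ccr6 promoter holds an NFAT match and that of Satb1 an E box. A match describes these letters and was not tested for binding. Only these spellings were searched, so a promoter without a match may hold a variant of the motif.

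At Tnfrsf9, which encodes the co-stimulatory receptor 4-1BB, the promoter peak had 81.9, 101, 133 and 108 in Treg, 21.9, 33.7, 24.2 and 30.4 in smSP and 21.3, 15.2, 22.9 and 31.6 in mSP (normalised reads in T9, T10, T7 and T8). Treg was above both other populations in every mouse, at a log2 difference of 1.90 (SE 0.18, limma adjusted p = 5.90e-08) from smSP. The mSP minus smSP difference was -0.29 (SE 0.25, limma adjusted p = 0.493). Socs3, an inhibitor of cytokine signalling, had 174, 153, 316 and 230.4 in Treg, 71.3, 73.7, 81.9 and 55.4 in smSP and 23.8, 40.3, 25.2 and 45.9 in mSP. The 3 populations did not overlap there and ran from Treg over smSP to mSP. Treg stood 1.57 (SE 0.16, limma adjusted p = 1.56e-07) above smSP and 2.65 (SE 0.22, limma adjusted p = 2.17e-07) above mSP, and mSP minus smSP was -1.08 (SE 0.20, limma adjusted p = 0.000116). Nfkbia, the inhibitor that holds NF-kB in the cytoplasm, had 574, 563, 687 and 612 in Treg, 318, 370.3, 344 and 361 in smSP and 352, 304, 324 and 389 in mSP. Treg exceeded both there by about the same amount, with 0.80 (SE 0.08, limma adjusted p = 1.07e-07) against smSP and -0.03 (SE 0.08, limma adjusted p = 0.866) for mSP minus smSP. At Ccr6, a chemokine receptor of recirculating Treg, the peak had 36.4, 48.3, 31.6 and 35.5 in Treg, 1.15, 2.35, 2.69 and 4.35 in smSP and 5.96, 4.48, 5.74 and 17.2 in mSP. It was near 0 in smSP and low in mSP, and Treg minus smSP was 3.48 (SE 0.40, limma adjusted p = 7.34e-07). Satb1, which organises chromatin in thymocytes, took the opposite course with 249.8, 228, 153 and 199.7 in Treg, 481, 382, 355 and 409 in smSP and 602, 609, 659.8 and 577 in mSP. Treg was lowest, smSP between and mSP highest with no overlap. Treg minus smSP was -0.98 (SE 0.10, limma adjusted p = 8.07e-08) and mSP minus smSP was 0.60 (SE 0.08, limma adjusted p = 2.81e-07).

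Over all peaks, 12953 (17.8%) were called higher and 14480 (19.9%) lower in Treg than in smSP. Treg against mSP, which shares the Treg libraries, gave 17283 (23.7%) higher and 18436 (25.3%) lower. The test of mSP against smSP is the test of the difference between these comparisons, and it called 7608 higher and 4659 lower in mSP. Gains in Treg reached larger sizes than losses. At a log2 difference of at least 3 from smSP, 873 peaks were higher and 143 lower, whereas at a size of at least 1 there were 5236 higher and 6982 lower. The median difference of called peaks was 0.81 for those higher and -0.97 for those lower, and 0.03 over all peaks. All 4 Treg libraries lay above all 4 smSP libraries at 10500 of the 12953 peaks called higher. They lay below them at 11875 of the 14480 called lower. Overlap was counted only among called peaks, and the calls rest on the same libraries, so these counts are no separate support. DESeq2 called fewer peaks than limma, with 8355 higher and 10654 lower in Treg than in smSP.

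At Foxp3 itself, Treg had open chromatin where both CD25-negative populations were at or near 0 reads. The peak at X:7583902-7584149 (mm10), in the Foxp3 gene body 3542 bases from the annotated start, had 84.0, 112, 207 and 169.9 normalised reads in Treg of T9, T10, T7 and T8. It had 0, 0.784, 0 and 2.17 in smSP, which is 3 reads over 4 libraries, and likewise 3 reads in mSP. The ratio of Treg to smSP was 175, with an exact 95% interval of 59.5 to 850 from counting error only (limma adjusted p = 8.24e-11). Next to it, X:7584167-7584401 had 66.8, 71.8, 149.6 and 143 in Treg, 4.6, 2.35, 0 and 0 in smSP and 0 reads in all 4 mSP libraries. Against a floor of 3 reads over the mSP group, Treg was at least 132-fold higher than mSP. The 7 reads of smSP at this peak all came from the CNS4-sufficient mice, and mSP minus smSP was not called (limma adjusted p = 0.531).

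Farther along the locus, the peak at X:7595027-7595312 lies where the bodies of Foxp3 and Ccdc22 overlap. It had 94.1, 95.2, 59.6 and 44.2 in Treg and 0, 0.784, 4.03 and 2.17 in smSP, a log2 difference of 4.94 (SE 0.46, limma adjusted p = 7.82e-08). The neighbouring X:7595380-7595548, in the Ccdc22 body, had 45.5, 55.9, 26.8 and 27.8 and 0, 0.784, 0 and 4.35, a difference of 4.44 (SE 0.54, limma adjusted p = 1.21e-06). Both stood near 0 in mSP as well, with at most 2.87 in a library. On the other side of Foxp3, within the body of Ppp1r3f, the peak at X:7567524-7567768 had 74.8, 104, 93.7 and 117 in Treg and 10.4, 11.8, 8.06 and 9.78 in smSP, a difference of 3.15 (SE 0.22, limma adjusted p = 9.87e-10). The peak at X:7566433-7566684 had 136, 126, 98.5 and 136 and 47.2, 64.3, 37.6 and 20.6, with a difference of 1.62 (SE 0.22, limma adjusted p = 9.90e-06). Treg was higher in every mouse at these peaks, without overlap.

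The peak at X:7570739-7571052 had 0 reads in every library of T7 and T8, the CNS4-deficient mice. In the sufficient mice T9 and T10 it had 139.6 and 117 in Treg, 67.9 and 87.1 in smSP and 47.7 and 54.7 in mSP. So it was readable in CD25-negative cells too, with Treg above smSP in both mice and smSP above mSP in both. With 2 mice in which the peak exists, the fit over 4 mice is no test of it. At X:7572485-7572749 Treg minus smSP was 0.62 (SE 0.17, limma adjusted p = 0.005), which did not pass without T8 (adjusted p = 0.0593). The peaks around the Ppp1r3f start differed little. At X:7574218-7574552, on its promoter, the difference was 0.15 (SE 0.09, limma adjusted p = 0.2), at X:7574006-7574160 it was 0.00 (SE 0.20, limma adjusted p = 0.988), and at X:7574701-7574963 it was 0.32 (SE 0.10, limma adjusted p = 0.0118), which did not pass without T9 (0.0736) or T8 (0.0870).

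The sort markers gave a mixed picture outside Foxp3. Il2ra, the CD25 gene that was gated only in the CD25-negative cells, had 10 of 19 peaks higher and 4 lower in Treg than in smSP. Of the 4 lower calls, 2 did not pass without T9 (limma adjusted p = 0.337 and 0.118), without T8 (0.131 and 0.0792), without the block (0.0902 and 0.0830) or by DESeq2 (0.122 and 0.194), and 1 of these also not without T10 or T7. The largest difference lay at 2:11625977-11626242, 16683 bases from the Il2ra start, with 110.2, 102, 103 and 97.0 in Treg, 5.75, 2.35, 13.4 and 8.69 in smSP and 0.851, 2.69, 4.59 and 2.87 in mSP. Treg was higher there in every mouse by a wide margin, at 3.79 (SE 0.29, limma adjusted p = 5.15e-09). Inside the gene, 2:11653432-11653722 went the other way with 369, 402, 332 and 359 in Treg and 429, 453, 537 and 452 in smSP, at -0.35 (SE 0.09, limma adjusted p = 0.00358). This call did not pass in the CNS4-sufficient mice alone (-0.19, limma adjusted p = 0.19). Cd4 had 3 of 5 peaks lower and none higher in Treg than in smSP. Its strongest peak, at 6:124885196-124885547, had 211, 244, 293 and 239 in Treg and 346, 376, 451 and 424 in smSP, which did not overlap. Cd8b1 had 3 of 5 peaks lower, 1 of which did not pass without T7 (limma adjusted p = 0.0569), and Cd8a had 1 lower and 1 higher, although all populations were sorted as CD8-. Between Treg and smSP, the 9 tested Cd24a peaks had adjusted p values of 0.183 or more by limma and 0.234 or more by edgeR, and all 9 were lower in Treg than in mSP.

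Outside the Foxp3 locus, the peaks with the largest gains in Treg lay at least 16220 bases from an annotated start. In Osbpl3, an oxysterol-binding protein family member, 6:50393920-50394464 had 384, 384, 691 and 556 in Treg, 3.45, 4.71, 13.4 and 9.78 in smSP and 3.4, 4.48, 12.6 and 2.87 in mSP. The Treg libraries did not overlap with the others, which for smSP the choice by size of gain largely entails. The CNS4-deficient mice had the higher Treg values. Treg minus smSP was 5.95 (SE 0.18, limma adjusted p = 1.33e-14), and mSP minus smSP was -0.41 (SE 0.48, limma adjusted p = 0.624). In Gxylt2, a xylosyltransferase gene, 6:100807193-100807536 had 255, 255, 545 and 386 in Treg, 1.15, 7.06, 8.06 and 6.52 in smSP and 3.4, 0.896, 2.29 and 5.74 in mSP, with Treg minus smSP 5.87 (SE 0.24, limma adjusted p = 4.45e-12). In Nek11, a kinase gene, 9:105368629-105368969 had 92.0, 103, 169 and 127 in Treg and at most 4.03 in a smSP library, a difference of 5.69 (SE 0.37, limma adjusted p = 2.74e-10). The peaks nearest to Snx13, a sorting nexin gene, and Layn, the gene of a hyaluronan receptor, and those in E130308A19Rik and Acot9, an acyl-CoA thioesterase gene, differed by 5.64, 5.42, 5.55 and 5.38 on the log2 scale. None of these 7 peaks was called between mSP and smSP, where both populations had few reads, so that differences there are poorly resolved.

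The largest losses in Treg lay at peaks with higher values in smSP, which the choice of peaks by size of loss entails. In Slc4a4, a sodium bicarbonate cotransporter gene, 5:89174484-89174689 had 7.08, 6.21, 4.87 and 2.88 in Treg, 145, 129, 152 and 105 in smSP and 57.0, 58.3, 71.1 and 81.8 in mSP. The 3 populations did not overlap, with smSP highest. Treg minus smSP was -4.46 (SE 0.24, limma adjusted p = 2.97e-11), Treg minus mSP -3.48 (SE 0.32, limma adjusted p = 1.34e-07) and mSP minus smSP -0.98 (SE 0.15, limma adjusted p = 5.18e-06). Ibtk, an inhibitor of Bruton's tyrosine kinase, had 8.09, 2.76, 4.87 and 17.3 in Treg, 185, 124, 214 and 128 in smSP and 47.7, 40.3, 45.9 and 33.0 in mSP at 9:85710358-85710678. Here too smSP was highest and the populations did not overlap, with Treg minus smSP -4.36 (SE 0.31, limma adjusted p = 1.38e-08) and mSP minus smSP -1.91 (SE 0.15, limma adjusted p = 2.63e-12). In Pdzrn3, a ubiquitin ligase gene, 6:101359745-101360001 had 7.08, 4.83, 12.2 and 0 in Treg, 74.8, 59.6, 105 and 58.7 in smSP and 19.6, 9.86, 18.4 and 10.1 in mSP. Treg and mSP overlapped, and smSP was above both. Treg minus smSP was -3.88 (SE 0.40, limma adjusted p = 4.67e-07) and Treg minus mSP -1.57 (SE 0.54, limma adjusted p = 0.0229). The Ctnnd2 and Itgb2l peaks, in a catenin and an integrin gene, differed by -4.35 and -3.98 from smSP and were not called between mSP and smSP. Of 3 lower peaks with no gene within 50 kb, 1 was called lower in mSP than in smSP, at 2:117988533-117988825, and it did not pass without T10 (limma adjusted p = 0.274).

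**Figure D2:**
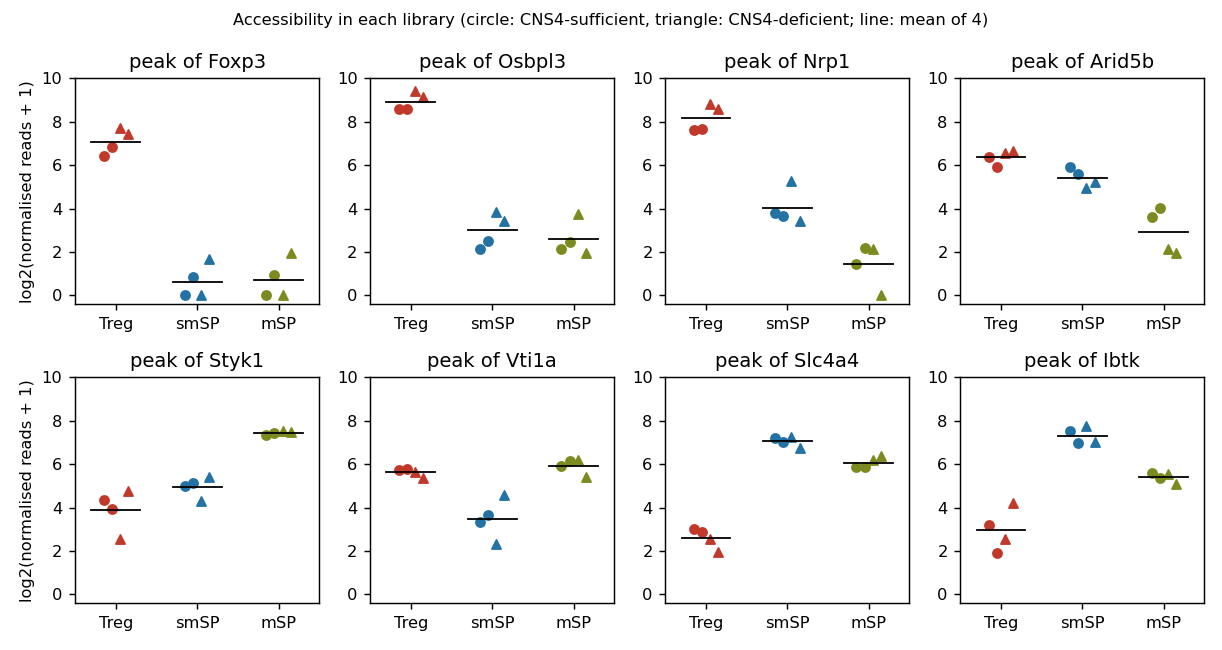
Log2(normalised reads + 1) of 8 named peaks in each of the 12 libraries, by labelled population. Points are libraries, with circles for CNS4-sufficient and triangles for CNS4-deficient mice, and lines are means of 4. At Nrp1 and Arid5b the order is Treg, smSP, mSP, at Styk1 and Vti1a mSP exceeds smSP, and at Slc4a4 and Ibtk smSP is highest.

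Peaks called both between Treg and smSP and between mSP and smSP show where Treg stood apart from the CD25-negative populations by different amounts. The peak nearest to Nrp1 (44239 bases away), the gene of neuropilin 1, a receptor of thymus-derived Treg, lay at 8:128549715-128550175 with 195, 199, 455 and 387 in Treg, 12.7, 11.8, 37.6 and 9.78 in smSP and 1.7, 3.59, 3.44 and 0 in mSP. The populations did not overlap, and smSP stood between Treg and mSP. Treg exceeded smSP by 4.14 (SE 0.21, limma adjusted p = 7.55e-11) and mSP by 6.73 (SE 0.40, limma adjusted p = 2.91e-08), and mSP minus smSP was -2.59 (SE 0.49, limma adjusted p = 0.000148). In smSP the library of T7 stood apart with 37.6. Near Ythdc1, a nuclear reader of methylated RNA, 5:86783099-86783545 had 44.5, 47.6, 149.6 and 97.0 in Treg, 38.0, 16.5, 26.9 and 8.69 in smSP and 0, 3.59, 1.15 and 0 in mSP, so that mSP was at or near 0 and Treg minus smSP was 1.87 (SE 0.36, limma adjusted p = 0.000948), which did not pass with the T8 libraries exchanged (0.173). In Arid5b, a chromatin factor gene, 10:68193078-68193234 had 81.9, 60.0, 94.9 and 101 in Treg, 59.8, 47.9, 29.6 and 35.9 in smSP and 11.1, 15.2, 3.44 and 2.87 in mSP. Its Treg minus smSP difference was 0.97 (SE 0.21, limma adjusted p = 0.00119) and its Treg minus mSP difference 3.46 (SE 0.40, limma adjusted p = 7.32e-06). The Treg minus smSP value was 0.38 in the CNS4-sufficient mice alone (limma adjusted p = 0.204) and 1.78 with the T8 libraries exchanged (0.154), which did not pass. In Ppp2r5a, a phosphatase subunit gene, 1:191384757-191384899 had 41.5, 46.9, 49.9 and 24.0 in Treg, 12.7, 9.41, 20.1 and 14.1 in smSP and 3.4, 8.96, 0 and 0 in mSP, with mSP minus smSP -2.50 (SE 0.57, limma adjusted p = 0.00156). That difference was -0.85 in the CNS4-sufficient mice alone (limma adjusted p = 0.38) and did not pass by DESeq2 (adjusted p = 0.173).

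In the opposite direction, mSP exceeded smSP. In Styk1, a kinase gene, 6:131320141-131320414 had 19.2, 14.5, 4.87 and 25.9 in Treg, 31.1, 34.5, 18.8 and 41.3 in smSP and 159, 170.3, 182 and 181 in mSP. The mSP libraries were far above both others. Treg minus smSP was -1.07 (SE 0.29, limma adjusted p = 0.006), against -3.54 (SE 0.29, limma adjusted p = 5.67e-07) for Treg minus mSP. In Vti1a, a gene of vesicle fusion, 19:55542517-55542786 had 52.6, 53.1, 48.6 and 40.3 in Treg, 9.21, 11.8, 4.03 and 22.8 in smSP and 58.7, 70.8, 71.1 and 41.6 in mSP. Treg and mSP overlapped there, and smSP was below both without overlap. Treg minus smSP was 2.14 (SE 0.33, limma adjusted p = 3.25e-05) and Treg minus mSP -0.29 (SE 0.17, limma adjusted p = 0.183). In Nfatc2, a factor of receptor signalling, 2:168488613-168488881 had 37.4, 47.6, 28.0 and 36.5 in Treg, 18.4, 18.0, 12.1 and 32.6 in smSP and 97.9, 110.3, 107 and 112 in mSP, so Treg was called above smSP and below mSP. The Treg against smSP call did not pass without T10 (limma adjusted p = 0.0724), by DESeq2 (0.0625), in the deficient mice alone (0.65, adjusted p = 0.189) or with the T8 libraries exchanged (0.47, adjusted p = 0.384). The peak nearest to Kctd1, at 18:15178372-15178519, had 71.8, 53.1, 48.6 and 28.8 in Treg, 0, 0, 2.69 and 3.26 in smSP and 6.81, 6.28, 9.18 and 15.8 in mSP. It ran from smSP near 0 over mSP to Treg, with Treg minus smSP 4.63 (SE 0.53, limma adjusted p = 6.85e-07). Its mSP minus smSP call did not pass in the deficient mice alone (1.72, limma adjusted p = 0.158). Of the 12 peaks named for a difference between mSP and smSP, 3 had no gene within 50 kb. At 4:54853018-54853397 there were 8.09, 30.4, 15.8 and 34.6 in Treg, 81.7, 66.7, 60.5 and 82.6 in smSP and 308, 269.8, 397 and 343 in mSP, with mSP highest and Treg lowest. At 14:26345045-26345258 mSP minus smSP was 2.17 (SE 0.22, limma adjusted p = 1.33e-09), and Treg minus smSP, -1.44, did not pass without T10 (limma adjusted p = 0.15). At 9:85105401-85105645 smSP was far above both others, with 15.2, 12.4, 9.73 and 14.4 in Treg, 104, 73.7, 110.2 and 70.6 in smSP and 9.36, 11.7, 21.8 and 25.8 in mSP.

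Some genes carried many changed peaks. The genes with the most peaks called at a log2 difference of at least 1 above smSP were Ikzf2, Dusp4, Hdac9, Foxp1 and Snx18. This ranking by number favours genes with many peaks. Over all peaks, 17.8% were called higher and 19.9% lower in Treg than in smSP. Ikzf2, which encodes Helios, had 32 of 55 peaks higher and 8 lower in Treg than in smSP, and 28 higher and 9 lower than in mSP. Dusp4, a phosphatase that acts on MAP kinases, had 27 of 35 higher and 1 lower. Its summed normalised reads were 3533, 3507, 3633 and 3342 in Treg, 1862, 1705, 1785 and 1866 in smSP and 1719, 1580, 1587 and 1518 in mSP. Treg was higher in every mouse without overlap, which for smSP the choice of the gene by its called peaks largely entails. Hdac9, a histone deacetylase gene, had 19 of 20 higher and 1 lower, with sums of 1227, 1407, 1407 and 1341 in Treg and 305, 253, 294 and 309 in smSP. Snx18, a sorting nexin gene, had 22 of 34 higher and none lower. Foxp1, a forkhead factor gene, had 21 of 96 higher but 22 lower than in smSP, near the shares of all peaks. Its median log2 difference from smSP was -0.14. Against mSP it had 34 higher and 19 lower.

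On the losing side, by the same ranking, stood Satb1, Syne1, Sox5, Adgrl2 and Slc4a4. Satb1 had 51 of 74 peaks lower and 1 higher in Treg than in smSP. Its sums were 4059, 4318, 2947 and 3551 in Treg, 6351, 5672, 5930 and 5867 in smSP and 5744, 5293, 6402 and 5956 in mSP. Treg was below both in every mouse, which for smSP the choice by called peaks largely entails, and smSP and mSP overlapped. Syne1, which encodes a nuclear envelope protein, had 23 of 30 lower and none higher, with sums of 1393, 1611, 1266 and 1468 in Treg and 3543, 3457, 3111 and 3390 in smSP. Adgrl2, an adhesion receptor gene, had 18 of 18 peaks lower, and Slc4a4 17 of 17. Sox5, a transcription factor gene, had 29 of 38 lower and 3 higher.

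Among the gene lists, Treg identity moved most strongly upward. Of its 305 tested peaks in 19 genes, 177 (58.0%) were called higher and 36 (11.8%) lower in Treg than in smSP. All peaks had 17.8% and 19.9%. The median log2 difference was 0.67 and 0.63 to 0.80 over the 4 mice, beside 0.03 over all peaks (0.0063 to 0.0152 over mice). Against mSP the list had 197 higher (64.6%) and 34 lower (11.2%), beside 23.7% and 25.3% of all peaks, with a median of 0.83. Between mSP and smSP it had 19 higher (6.23%) and 52 lower (17.1%) in mSP, beside 10.4% and 6.4% of all peaks. Lrrc32, which holds latent TGF-beta on the cell surface, had 15 of 15 peaks higher in Treg than in smSP. Ctla4, an inhibitory receptor gene, had 22 of 27 higher and 2 lower. Its summed reads were 3609, 3684, 4146 and 3649 in Treg, 1810, 1832, 1945 and 1907 in smSP and 1457, 1345, 1656 and 1570 in mSP. Treg was far above smSP in every mouse, and smSP was above mSP in every mouse, with 10 of 27 peaks called lower in mSP. Tnfrsf9 had 10 of 11 higher, Tigit, another inhibitory receptor gene, 16 of 23 higher and 1 lower. Icos, a co-stimulatory receptor gene, depended on the partner, with 7 higher and 4 lower of 27 against smSP but 15 higher and 3 lower against mSP. Its sums in Treg, 1883, 1861, 1799 and 1739, overlapped those in smSP, 1811, 1814, 2022 and 1871, and lay above those in mSP, 1470, 1293, 1656 and 1465. Itgae, the gene of an integrin chain, had 2 of 4 lower and none higher against smSP.

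Signalling lists leaned the same way to different degrees. Of the 140 peaks of the IL-2 receptor and STAT5 list, 65 (46.4%) were higher and 18 (12.9%) lower in Treg than in smSP. All peaks had 17.8% and 19.9%. The list median was 0.40 (0.36 to 0.49 over mice). Against mSP, 77 (55.0%) were higher and 18 (12.9%) lower, beside 23.7% and 25.3% of all peaks. Il2rb, the receptor's beta chain, had 9 of 10 peaks higher, with sums of 1301, 1306, 1813 and 1535 in Treg and 472, 592, 641 and 615 in smSP. Cish, a feedback inhibitor induced by STAT5, had 10 of 11 higher, and Socs2, its relative, 6 of 6. The peak nearest to Cish with the largest difference, at 9:107303154-107303447, had 51.6, 64.9, 114 and 81.6 in Treg, 5.75, 3.92, 4.03 and 4.35 in smSP and 3.4, 6.28, 9.18 and 0 in mSP. Treg did not overlap with either population there, and Treg minus smSP was 3.79 (SE 0.31, limma adjusted p = 5.89e-09). Bcl2, a survival gene, went the other way with 12 of 33 lower and 7 higher, the latter near the share of all peaks. Stat5b had 4 higher and 2 lower of 22 against smSP, the 4 being near the share of all peaks, but 12 higher and 2 lower against mSP.

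The NF-kB pathway list had 85 higher (44.3%) and 16 lower (8.33%) of 192 peaks against smSP, beside 17.8% and 19.9% of all peaks. Its median was 0.35 (0.27 to 0.45 over mice). Against mSP it had 104 higher (54.2%) and 21 lower (10.9%), beside 23.7% and 25.3% of all peaks. Nfkb1, the gene of the p105 precursor, had 18 of 37 higher and 2 lower. Near Rel, which encodes the subunit c-Rel, 11:23778745-23778960 had 132, 169, 131 and 101 in Treg, 12.7, 9.41, 8.06 and 21.7 in smSP and 9.36, 8.07, 8.03 and 10.1 in mSP, and Treg minus smSP was 3.33 (SE 0.25, limma adjusted p = 8.61e-09). In Traf1, an adaptor of TNF receptors, 2:34958079-34958413 had 159.8, 152, 219 and 191 in Treg, 19.6, 16.5, 22.8 and 17.4 in smSP and 6.81, 15.2, 9.18 and 31.6 in mSP, with Treg minus smSP 3.17 (SE 0.17, limma adjusted p = 1.87e-11). At these peaks, chosen for the size of their difference from smSP, Treg was above both populations without overlap.

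The TCR and co-stimulation list had 91 higher and 54 lower of 312 peaks against smSP (29.2% higher and 17.3% lower, the latter near the 19.9% of all peaks), with a median of 0.13 (0.09 to 0.15 over mice), and 129 higher and 54 lower against mSP. Nr4a1, an immediate early receptor gene, had 9 of 12 higher and none lower, and Nr4a2 10 of 13. Cd5, a negative regulator whose level follows receptor signal, had 10 of 18 higher and 3 lower. Egr2, another immediate early gene, had 5 of 17 lower and none higher. Nfatc1 had 7 higher and 5 lower of 41 against smSP, but 25 higher and 4 lower against mSP. Its sums were 3149, 3018, 3214 and 3113 in Treg, 2924, 2827, 3176 and 2902 in smSP and 2362, 2188, 2438 and 2437 in mSP. Treg and smSP overlapped, and mSP was below both. Cd28 gave 5 higher and 8 lower of 32 against smSP and 15 higher and 5 lower against mSP. At Dusp4, the most changed peak of the list, 8:34811214-34811414, had 82.9, 103, 128 and 83.5 in Treg, 8.06, 11.0, 6.72 and 8.69 in smSP and 2.55, 5.38, 9.18 and 7.18 in mSP, and Treg minus smSP was 3.38 (SE 0.24, limma adjusted p = 9.61e-10). In Nfatc2, 2:168553789-168553987 had 12.1, 11.0, 12.2 and 17.3 in Treg and 64.5, 35.3, 83.3 and 59.8 in smSP, with Treg minus smSP -2.08 (SE 0.25, limma adjusted p = 1.19e-06).

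The mature and egress genes differed most between the CD25-negative populations by the share of peaks called lower in mSP. Against smSP, Treg had 47 higher and 44 lower of 190 peaks (24.7% higher and 23.2% lower, beside 17.8% and 19.9% of all peaks) with a median of -0.01 (-0.11 to 0.06 over mice). Against mSP, Treg had 89 higher and 31 lower with a median of 0.37 (0.31 to 0.58). Between mSP and smSP, 9 were higher and 65 lower in mSP, with a median of -0.34. S1pr1 had 24 of 34 peaks and Klf2 9 of 14 lower in mSP, although maturing cells gain both. Like Cd24a, these 2 genes ran against the labels, but not every stage gene did. Cd44 of the same list had 6 of 25 peaks higher and 0 lower in mSP. Cd69, of the TCR and co-stimulation list, had 8 of 32 lower and 0 higher. So a likeness of Treg to either population here gives no stage of maturation. An exchange of the labels in all mice was not tested. S1pr1, the receptor that guides exit from the thymus, had 5 of 34 peaks higher and 5 lower in Treg than in smSP, but 24 higher and 2 lower than in mSP. Its summed reads were 2891, 2816, 2846 and 2691 in Treg, 3238, 2997, 3486 and 2914 in smSP and 1858, 1607, 2108 and 1994 in mSP. Treg was below smSP and above mSP in every mouse, and the groups did not overlap. Klf2, the factor that activates S1pr1, had 1 of 14 higher and 2 lower against smSP and 8 higher and 3 lower against mSP. Its sums were 1656, 1747, 1410 and 1380 in Treg, 1695, 1698, 1386 and 1419 in smSP and 1218, 1248, 1004 and 1084 in mSP. Treg and smSP overlapped, and mSP was below both. Ccr7, a chemokine receptor that leads cells to the thymic medulla, had 7 of 28 higher and 11 lower against smSP, and 12 higher and 3 lower against mSP. Its sums of 2370, 2187, 2119 and 1965 in Treg lay below those of 2485, 2350, 2903 and 2543 in smSP in every mouse, and mSP had 1789, 1593, 2283 and 2012. Itga4, an integrin gene, had 9 of 20 lower and 1 higher in Treg than in smSP, and 9 lower and 3 higher than in mSP. The 1 higher peak, at 2:79266589-79266794, had 82.9, 81.4, 106 and 81.6 in Treg, 6.91, 20.4, 21.5 and 15.2 in smSP and 6.81, 10.8, 11.5 and 2.87 in mSP, with Treg minus smSP 2.49 (SE 0.23, limma adjusted p = 4.52e-08). In Il6ra, the IL-6 receptor gene, 3:89905214-89905297 differed by 2.29 (SE 0.38, limma adjusted p = 4.96e-05).

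**Figure D3:**
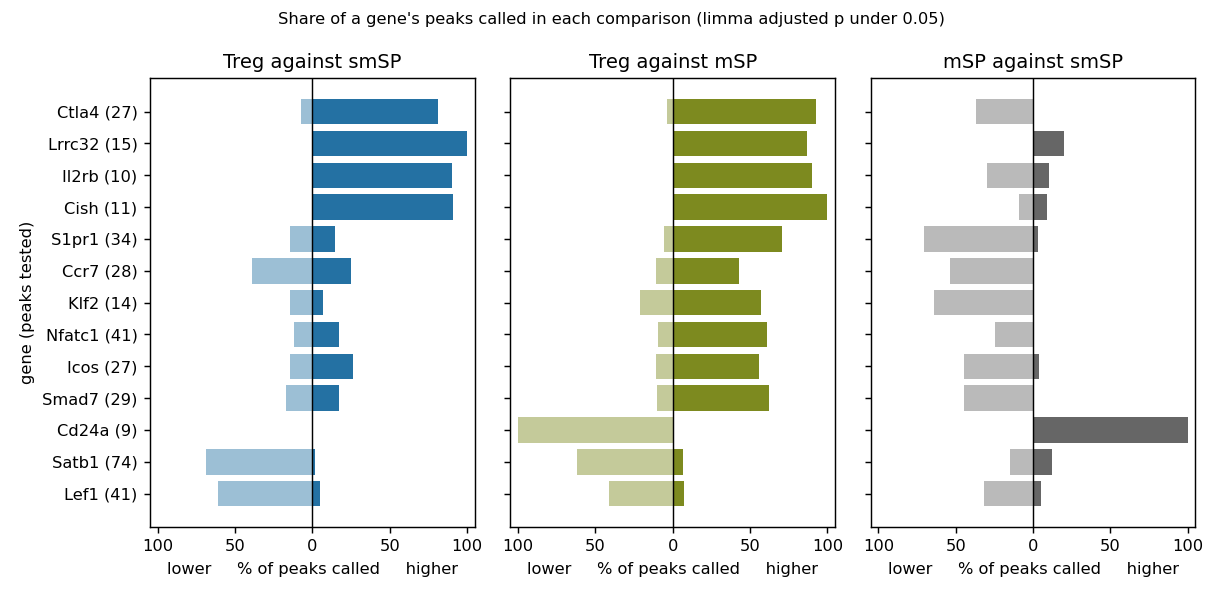
Share of a gene's tested peaks called higher (right, dark) or lower (left, pale) in each of 3 comparisons, with the number of peaks tested in parentheses. For S1pr1, 24 of 34 peaks were higher in Treg than in mSP and 5 of 34 in Treg than in smSP, while Lrrc32 was higher in Treg in 15 of 15 peaks against smSP.

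Immature thymocyte genes were less open in Treg than in smSP. Of 179 peaks, 6 (3.35%) were higher and 89 (49.7%) lower, beside 17.8% and 19.9% of all peaks, with a median of -0.44. Mouse by mouse, this median was -0.27 in T9 and -0.24 in T10, and -0.81 in T7 and -0.67 in T8, so the deficient mice lay lower. Of the 179 peaks, 2 were called for that difference between genotypes. Against mSP the list had 10 higher and 102 lower, with a median of -0.57. Between mSP and smSP, 35 were higher (19.6%) and 14 lower (7.82%) in mSP, beside 10.4% and 6.4% of all peaks. This too ran against the labels, but 9 of the 35 were the Cd24a peaks given above. Satb1, with 74 tested peaks, had 9 higher and 11 lower in mSP. A peak higher in mSP was found in 13 genes and a lower one in 4. The lower values in Treg than in smSP rested on most members besides Satb1. Arpp21 had 10 of 20 lower and Sox4, a transcription factor gene, 9 of 22. Ccr9, a receptor for thymic chemokine, had 6 of 10 lower and Dntt, the terminal transferase, 6 of 14, with none higher in these 4. Rag1, of the recombinase, had 1 tested peak with 36.4, 48.3, 29.2 and 46.1 in Treg, 124, 116, 108 and 139 in smSP and 213, 178, 224 and 228 in mSP. It ran from Treg over smSP to mSP without overlap. In Themis, a regulator of selection, 10:28681352-28681587 went against the list with 51.6, 64.9, 14.6 and 29.8 in Treg and 12.7, 6.28, 8.06 and 14.1 in smSP, a call that did not pass in the deficient mice alone (0.90, limma adjusted p = 0.169). The Satb1 peak with the largest loss, at 17:51876334-51876413, had 21.2, 22.8, 6.08 and 8.64 in Treg, 71.3, 48.6, 67.2 and 54.3 in smSP and 39.1, 22.4, 40.2 and 28.7 in mSP, and Treg minus smSP was -2.14 (SE 0.30, limma adjusted p = 1.16e-05).

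The CD4 lineage list had 41 higher (15.2%) and 83 lower (30.9%) of 269 peaks against smSP, beside 17.8% and 19.9% of all peaks. Its median was -0.08 (-0.23 to -0.05 over mice). Against mSP it had 74 higher (27.5%) and 69 lower (25.7%), near the 23.7% and 25.3% of all peaks. Lef1, a factor of the Wnt pathway, had 25 of 41 lower and 2 higher, and its relative Tcf7 13 of 25 lower and 3 higher. In Lef1, 3:131190727-131190997 had 33.4, 46.9, 13.4 and 41.3 in Treg, 137, 130.2, 150.5 and 166 in smSP and 96.2, 84.3, 122 and 115 in mSP, with Treg minus smSP -2.21 (SE 0.24, limma adjusted p = 1.44e-06). Tox, which is needed for CD4 lineage development, had 19 of 58 higher and 13 lower against smSP, and 31 higher and 8 lower against mSP. In Tox, 4:6859829-6860056 had 111, 152, 122 and 132 in Treg, 19.6, 13.3, 17.5 and 21.7 in smSP and 8.51, 19.7, 9.18 and 23.0 in mSP, and Treg minus smSP was 2.78 (SE 0.20, limma adjusted p = 8.21e-10). The E protein and Id list had 5 higher (7.81%) and 21 lower (32.8%) of 64 peaks against smSP. Its fitted median was 0.03, while the medians of single mice were -0.17 to -0.02, which differ in sign. In this list 16 of the lower peaks were among the 24 of Tcf4, an E protein gene. In Tcf4, 18:69608352-69608454 had 9.1, 17.2, 3.65 and 9.6 in Treg and 56.4, 34.5, 51.0 and 55.4 in smSP, with Treg minus smSP -2.34 (SE 0.34, limma adjusted p = 1.37e-05). Near Id3, an inhibitor of E proteins, 4:136106912-136107119 was higher in Treg, with 119, 119, 162 and 124 against 48.3, 56.5, 32.2 and 25.0 and a difference of 1.73 (SE 0.20, limma adjusted p = 1.16e-06).

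The TGF-beta pathway list had 33 higher (25.2%) and 28 lower (21.4%) of 131 peaks against smSP. All peaks had 17.8% and 19.9%, so only the lower share was near that of all peaks. The list median was 0.08 (-0.03 to 0.08 over mice). Against mSP it had 55 higher (42.0%) and 30 lower (22.9%), beside 23.7% and 25.3% of all peaks. Skil, a repressor of SMAD factors, had 10 of 14 higher and 1 lower, and in Skil 3:31105013-31105185 differed by 2.78 (SE 0.34, limma adjusted p = 1.17e-06). Tgfbr2, the type II receptor gene, had 10 of 29 lower and 4 higher, and the peak at 9:116208296-116208506, 32933 bases from the gene, was among those higher, at 2.75 (SE 0.42, limma adjusted p = 2.46e-05). Smad7, an inhibitor of the pathway, had 5 of 29 higher and 5 lower against smSP, but 18 higher and 3 lower against mSP. The effector or recirculating Treg list had 27 higher (38.6%) and 8 lower (11.4%) of 70 peaks against smSP, with a median of 0.26 (0.06 to 0.35 over mice). Ccr6 had 4 of 4 higher, Klrg1, a receptor of effector cells, 3 of 3, and Il10, the gene of an inhibitory cytokine, 6 of 6. In Ccr6, 17:8241736-8241889 had 33.4, 33.8, 49.9 and 55.7 in Treg, 0, 0, 2.69 and 2.17 in smSP and 1.7, 2.69, 8.03 and 5.74 in mSP, and Treg minus smSP was 4.54 (SE 0.46, limma adjusted p = 1.33e-07). The peak nearest to Klrg1, at 6:122293905-122294177, had 45.5, 58.7, 122 and 90.2 in Treg, 1.15, 1.57, 6.72 and 5.43 in smSP and 5.11, 2.69, 5.74 and 10.1 in mSP, with Treg minus smSP 4.20 (SE 0.31, limma adjusted p = 1.96e-09). Prdm1, a factor of effector Treg, had 4 of 18 lower and 2 higher.

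**Figure D4:**
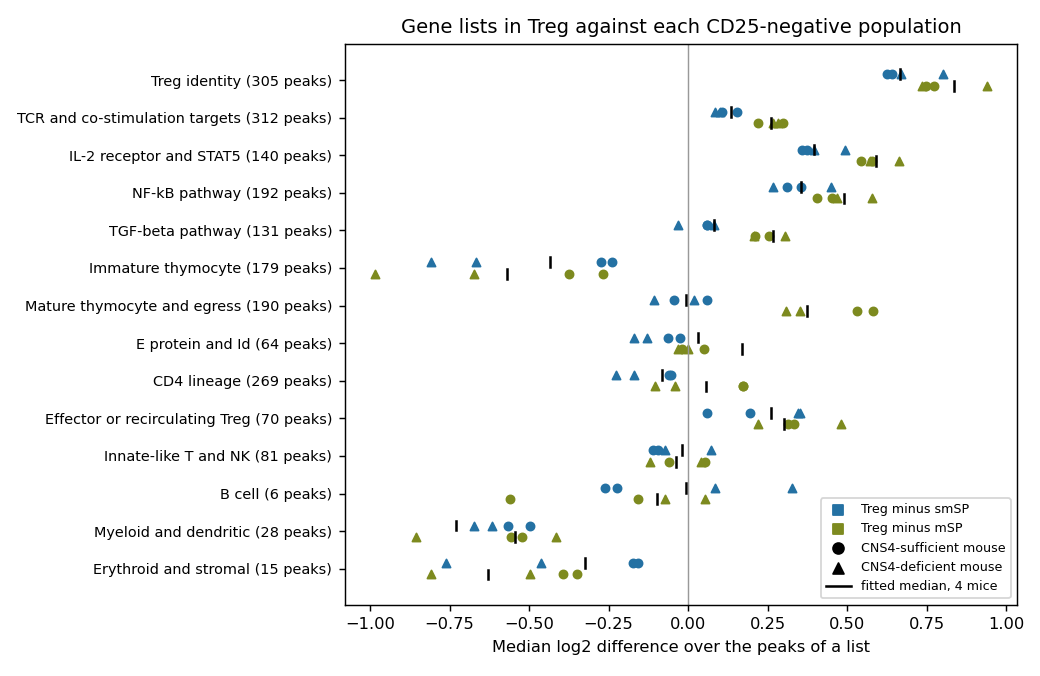
Median log2 difference over the tested peaks of each gene list, for Treg minus smSP and Treg minus mSP. Points are mice, with circles for CNS4-sufficient and triangles for CNS4-deficient mice, and black marks are the fitted medians of 4 mice. The mature and egress group stands at -0.01 against smSP and 0.37 against mSP.

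Markers of other cells were read from the same table. Among B cell genes, Cd79b and Ms4a1 had no peak tested, and the 6 peaks of Cd79a, Pax5 and Ebf1, 1 of them called lower, summed to 252 to 334 in Treg and 331 to 349.9 in smSP. Of 9 myeloid and dendritic genes, Itgax, Lyz2, Csf1r and Siglech had no peak tested. The other 28 peaks had 5 higher and 15 lower, 9 of them in Flt3, and summed to 1313 to 1528 in Treg and 1833 to 1982 in smSP. Of 8 erythroid and stromal genes, Krt5, Krt8 and Pdgfra had no peak tested, and the 15 peaks of the rest had 1 higher and 5 lower and summed to 630.0 to 909 in Treg and 918 to 1073 in smSP. The innate-like T and NK list had 22 of 81 peaks higher and 22 lower (27.2% each), beside 17.8% and 19.9% of all peaks. Of those higher, 19 lay in Rora, a nuclear receptor gene that Treg also use. In Rora, 9:69339863-69340149 had 90.0, 82.1, 122 and 127 in Treg and 5.75, 3.14, 0 and 3.26 in smSP, at 4.98 (SE 0.41, limma adjusted p = 2.92e-08). In Klrb1c, the NK1.1 gene, 6:128783458-128783600 had 56.6, 55.9, 43.8 and 50.9 in Treg and 4.6, 5.49, 6.72 and 9.78 in smSP, although 8 of the 19 peaks of that gene were lower and 1 higher. In Flt3, a cytokine receptor gene of progenitors and dendritic cells, 5:147363159-147363329 had 13.2, 21.4, 3.65 and 13.4 in Treg and 69.0, 64.3, 81.9 and 64.1 in smSP. The peak nearest to Itgam, at 7:128120210-128120374, had 3.03, 2.76, 3.65 and 2.88 in Treg, 34.5, 29.0, 24.2 and 20.6 in smSP and 11.9, 8.07, 10.3 and 10.1 in mSP. The part of such cells in the results was not tested.

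Promoters and distal sites differed in their direction. Of 11643 peaks on a RefSeq promoter window (250 bases before to 50 after a start), 20.6% were higher and 4.50% lower in Treg than in smSP. Of 35218 peaks over 10 kb from an annotated start, 20.2% were higher and 29.3% lower. Against mSP, 31.9% of promoter peaks were higher and 8.37% lower in Treg. Between mSP and smSP, 4.42% of promoter peaks were higher and 5.66% lower in mSP, beside 15.1% and 7.68% of distal peaks. Promoter peaks also had more signal, with a median of 134 normalised reads against 48.0 for distal peaks. The share of reads in promoter peaks was 37.6% to 38.2% in Treg, 34.5% to 36.3% in smSP and 33.3% to 35.4% in mSP. The part of that share in the percentages above was not tested. Windows with a peak higher in Treg than in smSP numbered 2450, had a median GC content of 64.0% over 300 bases, and held GGGCGGG in 59.6%. The 508 windows with a lower peak had 57.3% GC and held GGGCGGG in 38.4%. The windows with a peak that was not called lay between, at 61.7% GC and 49.9%. The E box letters CAGCTG were in 12.9% of the windows with a higher and 20.9% of those with a lower peak, beside 13.6% of the 10028 windows with a tested peak and 13.4% of those with a peak not called. Chromosome 18 has no entry among these windows and was left out of them.

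**Figure D5:**
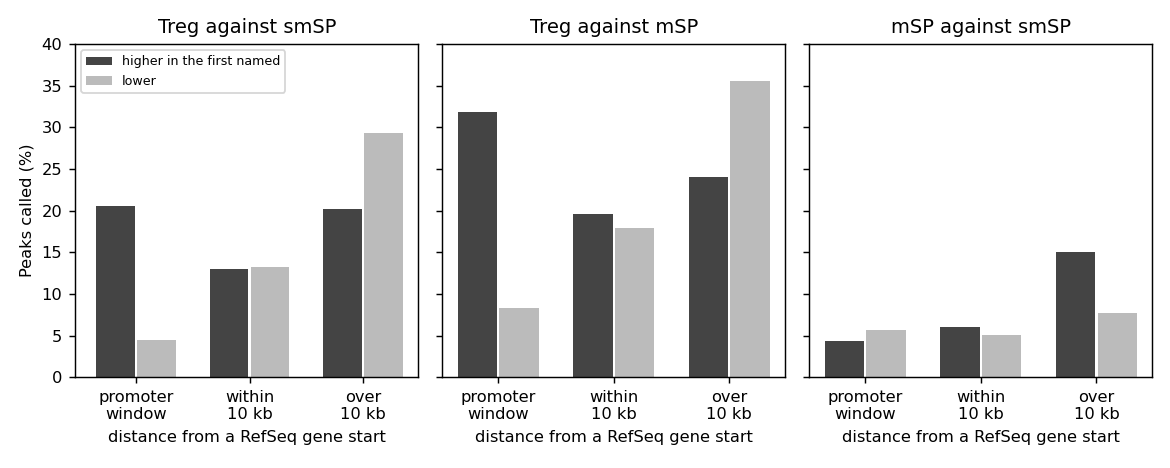
Percent of peaks called higher (dark) or lower (pale) in the first-named population, by distance from an annotated RefSeq gene start, for 3 comparisons. In Treg against smSP, promoter peaks were higher in 20.6% and lower in 4.50%, and peaks over 10 kb from a start were higher in 20.2% and lower in 29.3%.

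Whether the difference between Treg and smSP depended on CNS4 was tested with 2 mice a genotype. At 162 of 72838 peaks (0.222%) the difference was called, 86 of them with a larger and 76 with a smaller Treg minus smSP value in CNS4-deficient mice. edgeR called 122, and DESeq2 called 0, with 1394 at an unadjusted p under 0.05. The count was 65 without T9, 229 without T10, 253 without T7 and 1694 without T8, so single mice decide it. The peaks with the lowest p lay in or near Rbbp8nl, Plcl2, Marchf3, Tent5a and Myrip. In Rbbp8nl, 2:180276767-180277224 had 148, 146, 336 and 304 in Treg of T9, T10, T7 and T8 and 287, 298, 257 and 243 in their smSP. The Treg minus smSP value was 1.34 (SE 0.18, limma adjusted p = 0.00234) larger in deficient mice on the log2 scale. Near Plcl2, a phospholipase-like gene, 17:50485073-50485377 had 180.0, 185, 79.0 and 96.0 in Treg of T9, T10, T7 and T8 and 247, 238, 310.3 and 332 in their smSP. Treg lay below smSP in each mouse, and the difference between genotypes was -1.46 (SE 0.20, limma adjusted p = 0.00234). On the promoter window of Tent5a, a poly(A) polymerase gene, 9:85327259-85327471 had 187, 240.1, 409.9 and 374 in Treg of T9, T10, T7 and T8 and 222, 236, 199 and 147 in their smSP, a difference of 1.30 (SE 0.19, limma adjusted p = 0.00261). In Myrip, a gene of organelle transport, 9:120340027-120340306 had 44.5, 49.7, 193 and 149.8 in Treg of T9, T10, T7 and T8 and 44.9, 27.5, 26.9 and 18.5 in their smSP, a difference of 2.47 (SE 0.36, limma adjusted p = 0.00261). In Marchf3, a ubiquitin ligase gene, 18:56888793-56889123 had 48.5, 39.3, 215 and 169.9 in Treg of T9, T10, T7 and T8 and 55.2, 73.0, 76.6 and 47.8 in their smSP, a difference of 2.17 (SE 0.31, limma adjusted p = 0.00234). With the T8 libraries exchanged, the Marchf3 and Tent5a peaks did not pass (limma adjusted p = 0.161 and 0.469). At the Foxp3 peak X:7584167-7584401 the difference between genotypes was 3.19 (SE 0.69, limma adjusted p = 0.0409), which did not pass by edgeR (adjusted p = 0.119), at a pseudocount of 5 (0.0552), at a mean of at least 30 (0.210) or without T9 (0.382). Its Treg values of 66.8, 71.8, 149.6 and 143 are given above, and the sum in smSP was 7 reads.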

How the data were processed

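Members and gene lists were chosen with earlier results of these data known. Per the submitters' processing notes, the tools were Trimmomatic 0.36 for trimming, STAR 2.5.4b with build mm10, SAMtools 1.10, Genrich for peaks (no version stated), R 3.6.3 and DESeq2 1.24.0. The sources used here do not say whether cut sites were moved for the transposase. The deposited signal is a read count in each peak over a size factor per library, set by the authors. Each value was a whole multiple of 1 read within 0.0001 reads, with size factors from 0.697 to 1.45, so whole reads were recovered. Peak numbers run to 84054 and 10612 are absent, so the table holds part of the numbered peaks. Columns with no match to a sample numbered 0.

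Differences were tested by limma 3.58.1 in R 4.3.3 with a variance trend and robust moderation, on log2(value + 1) of 8 libraries a comparison with the mouse as a block, keeping peaks that averaged 10 or more normalised reads in Treg and smSP, Benjamini-Hochberg adjustment over all peaks at 0.05. Pairs come from the mouse labels, and the deviations of Treg and smSP correlated at 0.0083 in the sufficient and 0.087 in the deficient mice. Alternatives were the quasi-likelihood test of edgeR 4.0.16 after TMM scaling and DESeq2 1.42.0, both on the recovered reads, a pseudocount of 5, equal totals, quantile normalization, no filter or a mean of at least 30, no block, and mice or genotypes left out. Scripts were tested on simulated data. Mice are the replicates. Intervals cover counting error only. RefSeq (GRCm38.p6) gave genes: a peak got the shortest body it overlapped, or the nearest within 50 kb (92.6% of peaks, 68.3% in a body). Distances to a start use a table of starts that is not complete, and exons were not told apart from introns. Named peaks are those of the Foxp3 locus, the 8 largest folds each way in 1 direction in all mice, the 6 largest mSP minus smSP differences each way among peaks called in both, 2 genes a list, the sort markers, and the 5 lowest p values by genotype. Other list members given by their counts, and the promoters printed, were chosen after their values were seen. Summed reads of a gene compare samples, not genes. Some named peaks and genes are not reported here.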

Additional observations from a re-analysis of the deposited data

Results flagged for a closer look

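In 12 of 246 groups of 4 libraries examined (a population at a named peak, with a value of at least 20), 1 library lay far from the others by Dixon's 95% criterion, which chance gives in about 5% of groups. The peak at X:7574218-7574552 (Ppp1r3f) had 372 in mSP of T8, beside 338 to 342 in the others. The peak at 14:74359734-74359934 (no gene within 50 kb) had 103 in smSP of T8, beside 139.6 to 146 in the others. The peak at 8:128549715-128550175 (Nrp1) had 37.6 in smSP of T7, beside 9.78 to 12.7 in the others. The peak at 2:79266589-79266794 (Itga4) had 106 in Treg of T7, beside 81.4 to 82.9 in the others. The peak at 4:136106912-136107119 (Id3) had 162 in Treg of T7, beside 119 to 124 in the others. The peak at 11:44893018-44893214 (Ebf1) had 62.0 in Treg of T7, beside 84.9 to 86.4 in the others. The peak at 11:44893018-44893214 (Ebf1) had 134 in mSP of T10, beside 178 to 186 in the others. The peak at 2:11637161-11637295 (Il2ra) had 76.1 in smSP of T8, beside 64.3 to 65.8 in the others. The peak at 2:11642490-11642695 (Il2ra) had 87.5 in mSP of T8, beside 41.7 to 48.4 in the others. The peak at 2:11653750-11653880 (Il2ra) had 60.5 in smSP of T7, beside 39.1 to 40.8 in the others. The peak at 10:43579447-43579500 (Cd24a) had 5.74 in mSP of T7, beside 20.4 to 23.0 in the others. The peak at 6:71373315-71373512 (Cd8a) had 12.1 in smSP of T7, beside 27.2 to 28.2 in the others.

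The Treg minus smSP difference itself differed between CNS4-deficient and CNS4-sufficient mice at named peaks, by the limma interaction term with adjusted p under 0.05. On the log2 scale the difference of deficient minus sufficient mice was 3.19 for Foxp3 (adjusted p = 0.0409), 2.04 for Ythdc1 (adjusted p = 0.0407), 1.34 for Rbbp8nl (adjusted p = 0.00234), -1.46 for Plcl2 (adjusted p = 0.00234), 2.17 for Marchf3 (adjusted p = 0.00234), 1.30 for Tent5a (adjusted p = 0.00261) and 2.47 for Myrip (adjusted p = 0.00261). The peaks are those named in the report for these genes, and that of Ythdc1 did not pass by edgeR (adjusted p = 0.0627) or without T9 (0.461).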

How the results depend on the processing

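The counts of called peaks in Treg against smSP (27433) and against mSP (35719) stayed within 1.5 times under every alternative run, from 19009 and 26051 by DESeq2 to 27868 and 36466. Without the replicate block by mouse they were 26727 and 36001, and 9381 between mSP and smSP. The block changed no count by over 1.5 times, and of the named peaks it decided the calls of 2 of Il2ra, 1 of Cd8b1 and 1 of Ppp1r3f. Between mSP and smSP (12267) DESeq2 gave 4522, the CNS4-deficient mice alone 5824, and the exchanged T8 libraries 0 by limma, with 3988 at an unadjusted p under 0.05. No other tool was run on the exchanged libraries. Leaving out a mouse gave 8011 to 10522 there, 21696 to 24563 against smSP, 29983 to 32448 for Treg against mSP, and 65 to 1694 for the genotype difference, whose fits without a mouse were added after seeing the data and assume that the lone mouse of a genotype varies like the others. The genotype count (162) was 278 at a pseudocount of 5 and 0 by DESeq2, with 1394 at an unadjusted p under 0.05, and 122 by edgeR. The cause of these changes was not tested. Of 1846 values of called named peaks under alternatives, 1692 remained called and 154 did not, 47 of them with the T8 libraries exchanged and 26 by DESeq2, and none changed sign. Of 714 list medians under alternatives, 86 moved by more than the SD over mice and 32 changed sign, 2 of these in lists with a median beyond 0.2. With 38 to 76 reads at the median peak, depending on the library, small differences at weak peaks are poorly resolved.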
